A study of Mus musculus with 7 samples.

Results

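The HSP40 and heat shock protein chaperones are described here in pancreatic beta cells of early-weaned and of suckling mice. A gene was counted as a member when its symbol on the array began with Dnaja, Dnajb, Dnajc, Hspa, Hspb, Hspd, Hspe or Hsph followed by a digit, with Hsp90, or with Bag followed by a digit. The rule used names and no measured value, and found 76 of 19938 genes. By where their proteins mainly act, 44 members belong to the cytosol, 14 to the endoplasmic reticulum (ER), 8 to mitochondria and 5 to vesicles, and 5 have another or an unsettled place. The cytosol class also holds nuclear proteins, among them Dnajc17, Dnajc8 and Dnajc9, and Dnajb13 of the axoneme. Hspa1b and Hsp90ab1 had no probe set with a single symbol and were not analysed here.

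Cells were taken at postnatal day 25 from mice that carried insulin-Cre and Rosa26-LSL-YFP on the outbred ICR background. In such mice Cre made under the insulin promoter removes a stop before a yellow fluorescent protein, so that the sort collects cells in which this promoter has driven Cre. The 3 weaned mice had been taken from their mothers prematurely, at day 18, and the 4 suckling mice had not been weaned. Each mouse gave between 2000 and 6000 sorted cells and 1 array, so the spread between arrays holds differences between animals together with those of RNA amplification. The comparison asks how transcript levels in beta cells of the same age differ after early weaning.

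Newly made proteins fold with the help of Hsp70, which grips unfolded stretches and lets go of them in a cycle driven by ATP. J-domain proteins, the HSP40 family, bring clients to Hsp70 and speed up its ATP cleavage, while Bag proteins and the Hsp110 relatives release its nucleotide. Hsp90 takes over late folding steps, and small heat shock proteins hold unfolding proteins without ATP. Heat shock factor 1 raises the cytosolic set when unfolded protein builds up in the cytosol, and the unfolded protein response, with its sensors IRE1, PERK and ATF6, raises the ER set. Beta cells make proinsulin in bulk and depend on ER chaperones to fold it.

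Promoter sequences are shown first for some of the members on which the results turn, since the cytosolic and ER sets are controlled through different DNA motifs. RefSeq promoter windows of build GRCm38.p6, running from 250 bases before to 50 bases after a start site, were held for 62 members, in 80 windows. Hspa8, Hsp90aa1 and Hspa13 are among the members without a window, so their promoters were not searched. The sequences below are from those windows, 5′ to 3′ on the strand of the gene, with the matched motif in capitals. A pair of adjoining heat shock units was searched for as GAANNTTC or TTCNNGAA, on both strands, where N is any base. A heat shock element was a further unit added to such a pair after 2 bases of any kind, as GAA after GAANNTTC or TTC after TTCNNGAA. Each heat shock element holds 2 overlapping pairs. The first stretch of Hsph1 lies on chr5:149636337-149636456 (minus strand) and ends at the base before the start, with 1 pair. The second, on chr5:149636287-149636316 (minus strand), lies past the start and holds a heat shock element. Dnaja1 is shown from chr4:40722318-40722467 (plus strand) with 1 pair, and Hspe1 from chr1:55087998-55088147 (plus strand) with 2 overlapping heat shock elements.
Hsph1 before the start: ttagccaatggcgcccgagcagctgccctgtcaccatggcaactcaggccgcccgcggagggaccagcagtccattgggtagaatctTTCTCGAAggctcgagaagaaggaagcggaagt
Hsph1 after the start: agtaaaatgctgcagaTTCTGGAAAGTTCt
Dnaja1: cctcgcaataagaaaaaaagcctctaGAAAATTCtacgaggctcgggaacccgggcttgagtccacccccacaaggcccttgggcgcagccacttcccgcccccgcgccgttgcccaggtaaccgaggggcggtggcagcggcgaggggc
Hspe1: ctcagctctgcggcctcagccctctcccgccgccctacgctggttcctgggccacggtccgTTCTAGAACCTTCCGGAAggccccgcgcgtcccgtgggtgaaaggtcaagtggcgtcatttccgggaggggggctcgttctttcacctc

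The heat shock element was present in 0.603% of all 32851 windows, or for 179 of 27025 genes. It was in the windows of 4 of the 62 members searched, Hsph1, Dnajb6, Hspd1 and Hspe1. Hspd1 and Hspe1 lie head to head, so that their windows share the same pair of matches. Pairs of units are common, at 15.1% of all windows, or for 4587 of 27025 genes. Of the 62 members 16 had one, among them Dnaja1, Hspa1a, Hspb1 and Bag3. A match is a description of the letters and no evidence of binding, and where there is no match these letters are only missing from that window.

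For the ER set, the ER stress element was searched for as CCAAT, 9 bases of any kind and CCACG, and the shorter second form as ATTGG, 1 base of any kind and CCACG, each on both strands. Dnajb9 is shown from chr12:44210069-44210318 (minus strand), where neither full element was found, with the parts CCACG and CCAAT in capitals. Hspa5 is shown from chr2:34771940-34772089 (plus strand) with 1 full element, Hsp90b1 from chr10:86705445-86705694 (minus strand) with 2, and Dnajc3 from chr14:118937782-118937931 (plus strand) with 1.
Dnajb9: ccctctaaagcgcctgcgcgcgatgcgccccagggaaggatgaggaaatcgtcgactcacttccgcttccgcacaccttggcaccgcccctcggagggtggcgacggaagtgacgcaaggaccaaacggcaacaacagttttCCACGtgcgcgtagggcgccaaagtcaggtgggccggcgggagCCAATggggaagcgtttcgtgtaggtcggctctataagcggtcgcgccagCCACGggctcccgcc
Hspa5: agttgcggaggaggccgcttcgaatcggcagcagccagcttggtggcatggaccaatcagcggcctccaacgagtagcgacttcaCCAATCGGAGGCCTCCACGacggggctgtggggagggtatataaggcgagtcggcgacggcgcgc
Hsp90b1: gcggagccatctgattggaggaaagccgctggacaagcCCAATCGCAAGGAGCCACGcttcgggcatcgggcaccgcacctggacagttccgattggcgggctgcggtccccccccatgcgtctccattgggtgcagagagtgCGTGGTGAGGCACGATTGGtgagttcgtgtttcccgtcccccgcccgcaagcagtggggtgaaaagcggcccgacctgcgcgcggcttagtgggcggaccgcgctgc
Dnajc3: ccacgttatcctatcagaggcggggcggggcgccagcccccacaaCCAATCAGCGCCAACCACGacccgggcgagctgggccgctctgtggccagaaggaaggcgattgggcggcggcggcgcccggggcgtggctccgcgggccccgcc

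The ER stress element was in 0.119% of all windows, or for 37 of 27025 genes. Hspa5, Hsp90b1 and Dnajc3 were the 3 of 62 members with it. The second form was in 0.0365% of all windows, or for 12 of 27025 genes, and in 1 member, Dnajb11, just after its start. TGACGTGG, a motif of XBP1 and ATF6 searched for on both strands, was in 0.676% of windows, or for 193 of 27025 genes. It was in 1 member, Dnajc25.

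The deposited values are linear RMA intensities, and every level below is their log2. Levels are not compared between genes, since probe sets differ in brightness. Array medians ran from 14.1 to 14.9 on the linear scale, and over all genes the log2 difference had a standard error of 0.14 at the median. The mean of 10 beta cell markers was 9.75 to 9.91 log2 units on weaned and 9.79 to 9.89 on suckling arrays. The mean of 6 markers of other islet hormone cells was 8.02 to 8.34 on weaned and 7.93 to 8.37 on suckling arrays, so other endocrine transcripts were present in both groups. Endothelial, leukocyte and stellate marker means stayed between 3.05 and 3.43 on weaned and between 3.01 and 3.67 on suckling arrays, and the mean of 8 duct markers between 6.36 and 6.59 on weaned and between 6.40 and 6.99 on suckling arrays. The mean of 20 acinar markers was 3.96, 3.88 and 5.93 on weaned arrays 4, 5 and 12, against 7.64, 7.49, 4.15 and 5.04 on suckling arrays 2, 9, 11 and 12, and all 20 means were lower in weaned mice. Bhlha15, 1 of these 20, measured 7.86, 8.24 and 7.52 log2 units on weaned arrays, against 8.66, 8.56, 8.72 and 8.37 on suckling arrays. Its groups did not overlap (-0.71, SE 0.17, adjusted p = 0.418 in limma), which held for only 1 of the 20. Bhlha15 was highest on suckling array 11 and lowest on weaned array 12, unlike the mean of the 20. Ptf1a, the factor that defines acinar cells, had a mean of 2.83 log2 units for weaned arrays and 2.83 for suckling arrays. This is a dim level, below the 95th percentile of 1027 olfactory receptor genes at 3.27 log2 units, a limit chosen after the data were seen. Immediate early genes averaged 5.86, 6.45 and 5.76 on the weaned arrays and 5.61, 5.78, 5.98 and 5.88 on the suckling arrays. The part of acinar RNA and of the immediate early response in the results was not tested beyond the values given beside them. All weaned arrays are described with a code L13 and all suckling arrays with L14, and what the codes mark cannot be told apart from weaning.

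No member passed the threshold of an adjusted p of 0.05 in limma, with Benjamini-Hochberg adjustment over all genes, which 0.015% of all genes passed, and 0 passed 0.1, which 0.0351% of all genes passed. Before adjustment limma gave a p under 0.05 for 3 members with higher and 7 with lower weaned means, where 4.39% of all genes were higher and 3.19% lower. Together these are 13.2% of the members, against 7.58% of all genes. For 3 members every weaned array lay above every suckling array and for 8 members below, where such separation held for 7.32% of all genes, 3.9% above and 3.43% below. The count of 7 lower members became 4 without weaned replicate 12 or without suckling replicate 12, and 10 at most without another single array. The count of 3 higher members became 1 without suckling replicates 2 and 9, which have the highest acinar means, and 1 with the acinar mean as a covariate.

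Weaned means were higher for 32 members and lower for 44, or 42.1% higher, where 50.1% of all genes had a higher weaned mean. Brighter genes were more often higher in weaned mice, at 58.2% of the 9969 genes above the median level, but 25 of the 63 members in that range were higher, or 39.7%. The median difference was -0.029 over members and 0.00047 over all genes, and the members ran from -0.72 to 0.44. In sorted bulk samples, fewer cells of a type and less RNA per cell cannot be told apart.

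**Figure D1:**
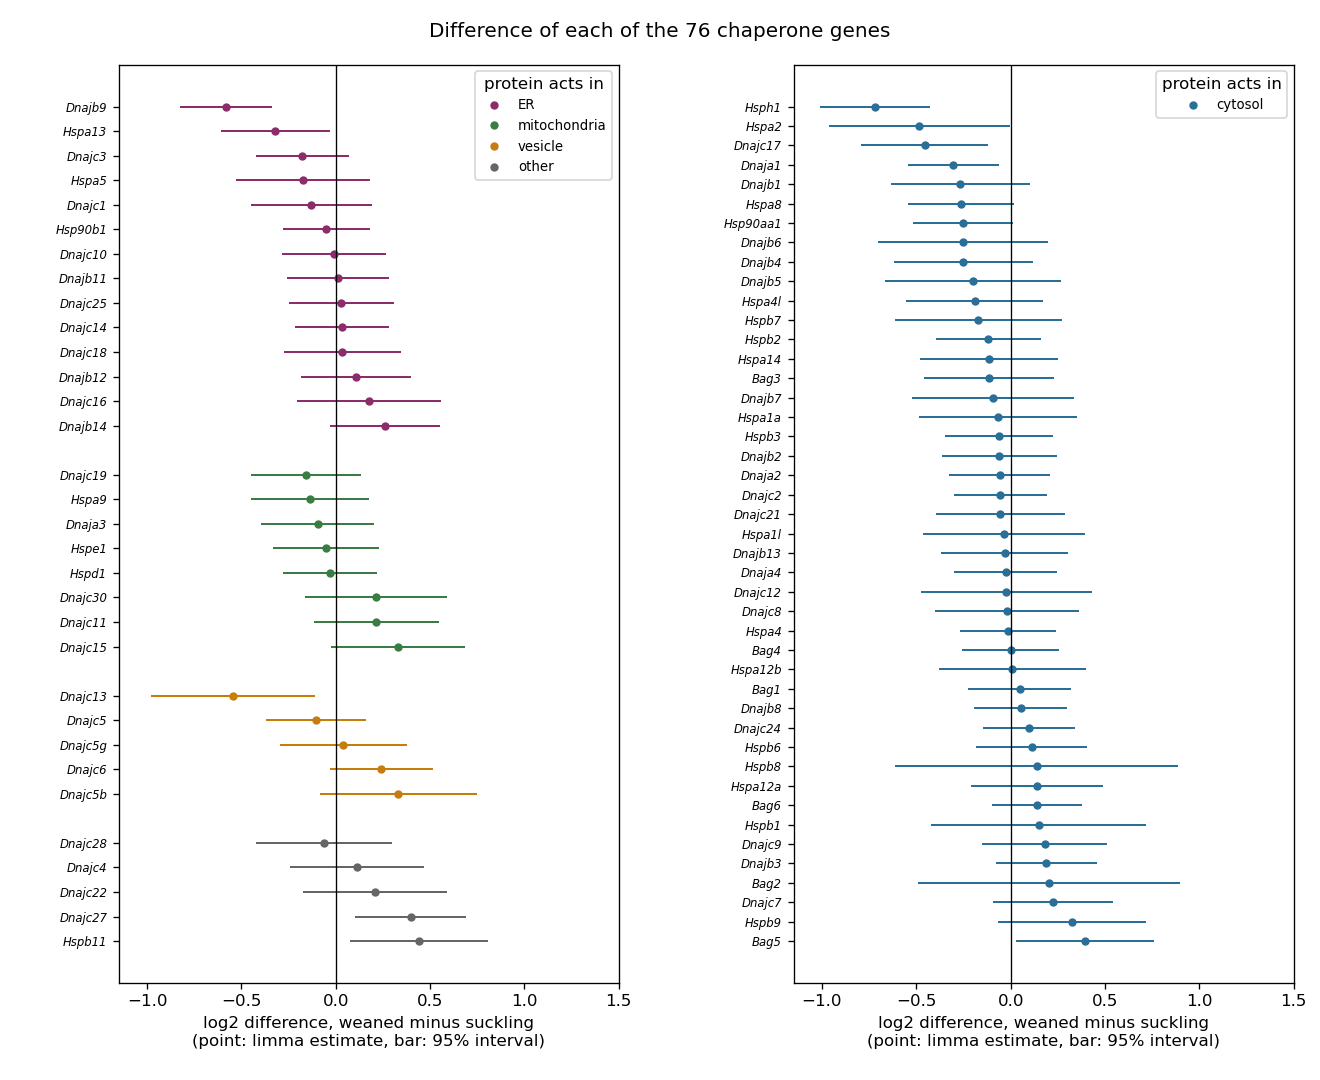
Log2 difference, weaned minus suckling, of all 76 chaperone genes by where their proteins act, with limma estimates as points and 95% intervals as bars. Hsph1 in the cytosol (-0.72) and Dnajb9 in the ER (-0.58) lie farthest to the left, and 0 members passed the adjusted threshold.

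Of the 13 Hsp70 and Hsp110 members, 11 had lower and 2 higher weaned means, and the widest gap of all members was that of Hsph1, an Hsp110 relative that exchanges the nucleotide of Hsp70. Hsph1 measured 7.76, 7.48 and 7.39 log2 units on weaned replicates 4, 5 and 12, against 8.15, 8.25, 8.25 and 8.41 on suckling replicates 2, 9, 11 and 12. Every weaned array lay below every suckling array. The difference was -0.72 (SE 0.13, 95% interval -1.0 to -0.43), which is 1.65-fold more signal in suckling mice, and its adjusted p was 0.225 in limma. It ranked 23 of all genes by p. With the acinar mean as a covariate the difference was -0.80 (adjusted p = 0.429 in limma), and with the immediate early mean -0.72 (adjusted p = 0.440 in limma). It was -0.78 without suckling replicates 2 and 9. The part of acinar RNA or of the immediate early response in this difference was not tested.

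Hspa8 is the constitutive cytosolic Hsp70. It measured 11.50, 11.44 and 11.11 log2 units on the weaned arrays, in the order above, against 11.64, 11.63, 11.55 and 11.65 on the suckling arrays. The groups did not overlap, and weaned replicate 12 was the lowest of all 7. Its difference was -0.26 (SE 0.12, adjusted p = 0.665 in limma), and -0.14 without weaned replicate 12. Its other 2 probe sets with a single symbol differed by -0.31 and -0.28. A pair of probe sets that name Hspa8 together with small nucleolar RNA genes of its introns were not assigned to it. Both overlapped between groups, with weaned replicate 5 the highest array. The first gave 8.52, 9.03 and 8.30 on weaned arrays, against 8.25, 8.41, 8.26 and 8.59 on suckling arrays.

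Dnaja1 is a J-domain partner of Hspa8 in the cytosol. It measured 9.49, 9.43 and 9.42 log2 units on the weaned arrays, against 9.79, 9.68, 9.67 and 9.87 on the suckling arrays. The groups did not overlap and the weaned arrays lay within a narrow band. The difference was -0.30 (SE 0.10, adjusted p = 0.577 in limma), and the second probe set with a single symbol differed by -0.34. A further probe set, which names Dnaja1 together with Mir207, was not assigned to it and overlapped between groups. It gave 7.68, 7.87 and 7.98 on weaned arrays, against 8.19, 8.0, 8.07 and 7.70 on suckling arrays. RefSeq lists 1 pseudogene of Dnaja1, whose share of the signal is not known. All 4 Dnaja members had lower weaned means, with Dnaja3 at -0.096, Dnaja2 at -0.057 and Dnaja4 at -0.027.

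Hsp90aa1 is the stress-inducible form of cytosolic Hsp90. It measured 10.82, 10.52 and 10.50 log2 units on the weaned arrays, against 10.83, 10.91, 10.83 and 10.91 on the suckling arrays. The groups did not overlap, although weaned replicate 4 came close to the lowest suckling array. The difference was -0.25 (SE 0.12, adjusted p = 0.659 in limma), and the other 2 probe sets gave -0.29 and -0.28.

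Hspa2, an Hsp70 known best from spermatocytes, also reached an unadjusted p under 0.05. Its weaned arrays gave 5.69, 5.48 and 5.84 log2 units, against 6.67, 6.16, 5.68 and 6.10 on the suckling arrays. Suckling replicate 11 lay inside the weaned range, so the groups overlapped. The difference was -0.48 (SE 0.21, adjusted p = 0.651 in limma). It was -0.22 without suckling replicates 2 and 9, and -0.31 without suckling replicate 2 alone.

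The median of the Hsp70 and Hsp110 members was -0.14, and Hsph1, Hspa2 and Hspa13 were the 3 with an unadjusted p below 0.05, all with lower weaned means. They are 23.1% of these members, against 7.58% of all genes, or 3.19% with a lower weaned mean. Hspa1a, an inducible Hsp70, measured 6.51, 6.42 and 6.28 log2 units on weaned arrays, against 6.28, 6.18, 6.97 and 6.45 on suckling arrays, and the groups overlapped widely (-0.07, SE 0.18). A probe set shared by Hspa1a and Hspa1b also overlapped, at 6.59, 7.22 and 6.77 on weaned arrays and 6.96, 6.52, 7.53 and 7.01 on suckling arrays. Dnajb1, the classical stress-inducible J-domain partner of Hsp70, had 5.89, 6.02 and 5.48 on weaned arrays, against 6.07, 5.91, 6.33 and 5.95 on suckling arrays. The groups overlapped at weaned replicate 5, and the difference was -0.27 (SE 0.16, adjusted p = 0.737 in limma). It was -0.11 without weaned replicate 12 and -0.42 with the acinar mean as a covariate.

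The 11 measured members among 13 known targets of heat shock factor 1 are a list drawn up with earlier results of these data known. Of these, 10 had lower weaned means and 1, the small heat shock protein Hspb1, a higher one, though its second probe set differed by -0.029. Their median difference was -0.19, beside 0.00047 over all genes, and 2 of the lower ones had an unadjusted p below 0.05, or 18.2% of the list, against 7.58% of all genes and 3.19% with a lower weaned mean. Their mean level was 8.27, 8.06 and 8.0 log2 units on weaned arrays, against 8.18, 8.29, 8.39 and 8.34 on suckling arrays. Weaned replicate 4 lay above suckling replicate 2, so the groups overlapped in this mean. Over all 44 members classed as cytosolic, nuclear proteins such as Dnajc17 included, 29 means were lower and 15 higher. The median of this class, -0.045, became 0.00094 at the highest when 1 array was left out.

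**Figure D2:**
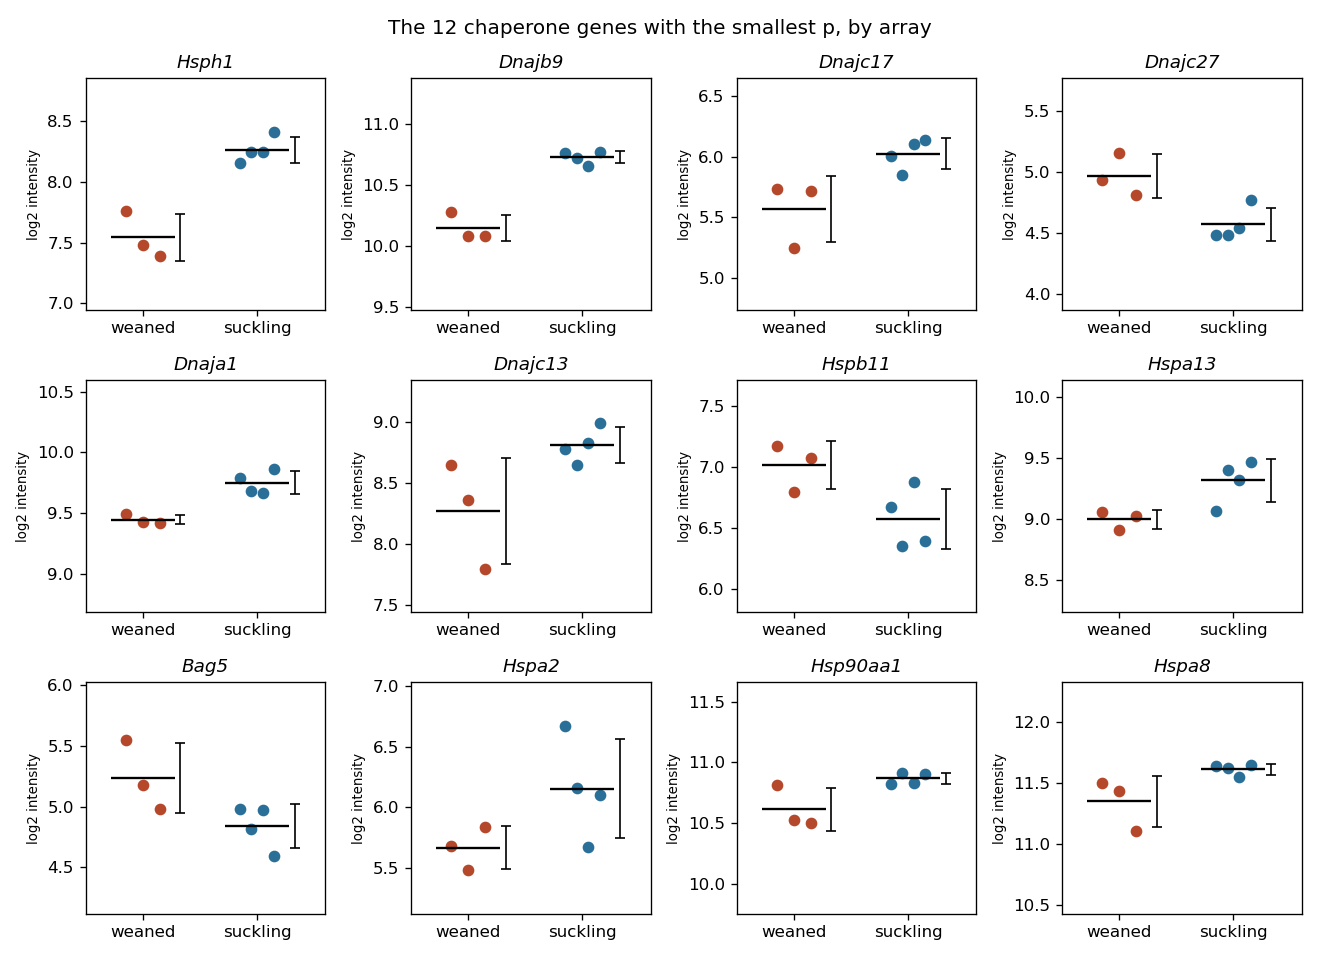
Log2 intensity on each array of the 12 chaperone genes with the smallest p, with weaned mice left of suckling mice, points for mice, lines for group means and bars for SD. The weaned points of Hsph1 and Dnajb9 lie clear below the suckling points, while those of Dnajc13, Hspb11 and Hspa2 overlap with them.

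Of the ER members, Dnajb9 had the widest gap. Dnajb9 (ERdj4) is a J-domain protein that hands misfolded proteins to degradation and keeps the sensor IRE1 quiet by recruiting Hspa5. It measured 10.28, 10.08 and 10.09 log2 units on weaned arrays, against 10.76, 10.73, 10.66 and 10.77 on suckling arrays. The groups were separated by a gap wider than the range of either. The difference was -0.58 (SE 0.11, 95% interval -0.82 to -0.34), which is 1.5-fold more signal in suckling mice, with an adjusted p of 0.261 in limma. With an intensity trend and a robust prior, an alternative setting of limma, its adjusted p was 0.0236, and over all alternatives it ran from 0.0236 to 0.902. The difference was -0.58 with the acinar mean as a covariate, -0.55 with the immediate early mean, and -0.57 without suckling replicates 2 and 9.

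Hspa5 (BiP) is the Hsp70 of the ER and the master partner of its J-domain proteins. It measured 10.29, 9.81 and 9.76 log2 units on weaned arrays, against 9.93, 10.31, 10.17 and 10.08 on suckling arrays. The groups overlapped, with weaned replicate 4 near the top of all arrays. The difference was -0.17 (SE 0.16, adjusted p = 0.840 in limma), and -0.34 without weaned replicate 4 against -0.077 without weaned replicate 12. Hsp90b1 (GRP94), the Hsp90 of the ER, gave 11.28, 11.17 and 11.16 on weaned arrays, against 11.23, 11.29, 11.24 and 11.25 on suckling arrays, with overlap and a difference of -0.049 (SE 0.10).

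Hspa13 (Stch), an Hsp70 relative of the ER without a client-binding domain, had 9.06, 8.91 and 9.03 log2 units on weaned arrays, against 9.07, 9.41, 9.32 and 9.47 on suckling arrays. The groups did not overlap, by a narrow margin at suckling replicate 2. The difference was -0.32 (SE 0.13, adjusted p = 0.634 in limma). Dnajc3 (p58IPK), which restrains PERK and helps Hspa5, had 10.51, 10.35 and 10.51 on weaned arrays, against 10.62, 10.66, 10.54 and 10.73 on suckling arrays. Its groups did not overlap, and the difference was -0.18 (SE 0.11, adjusted p = 0.737 in limma).

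Of the other ER partners of Hspa5, Dnajb11 and Dnajc10 had estimates close to 0. Dnajb11 (ERdj3), which binds newly made secretory proteins, differed by 0.010 (SE 0.12), with 9.20, 8.94 and 9.25 log2 units on weaned arrays and 9.07, 9.18, 9.03 and 9.19 on suckling arrays. Dnajc10 (ERdj5), a reductase that opens disulfide bonds of proteins bound for degradation, differed by -0.0086 (SE 0.12). The highest of the ER set was Dnajb14, a membrane protein of ER quality control, at 0.26 (SE 0.13). Of all 14 ER members, 7 means were higher and 7 lower, with a median of 0.00068 and an unadjusted p below 0.05 for 2 of the lower ones, or 14.3%, against 7.58% of all genes and 3.19% with a lower weaned mean. The median of the ER set was -0.0557 without suckling replicates 2 and 9.

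Dnajb9, Hspa5, Hsp90b1, Hspa13, Dnajc3, Dnajb11 and Dnajc10 are the 7 members known as targets of the unfolded protein response, a list chosen with earlier results known. Of these, 6 means were lower and 1 higher in weaned mice, with a median of -0.17, beside 0.00047 over all genes. Of the lower ones 2 had an unadjusted p below 0.05, or 28.6% of the list, against 7.58% of all genes and 3.19% with a lower weaned mean. Their mean level was 9.86, 9.62 and 9.71 log2 units on weaned arrays, against 9.84, 9.96, 9.88 and 9.97 on suckling arrays. Weaned replicate 4 lay above suckling replicate 2, as for the heat shock factor targets.

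**Figure D3:**
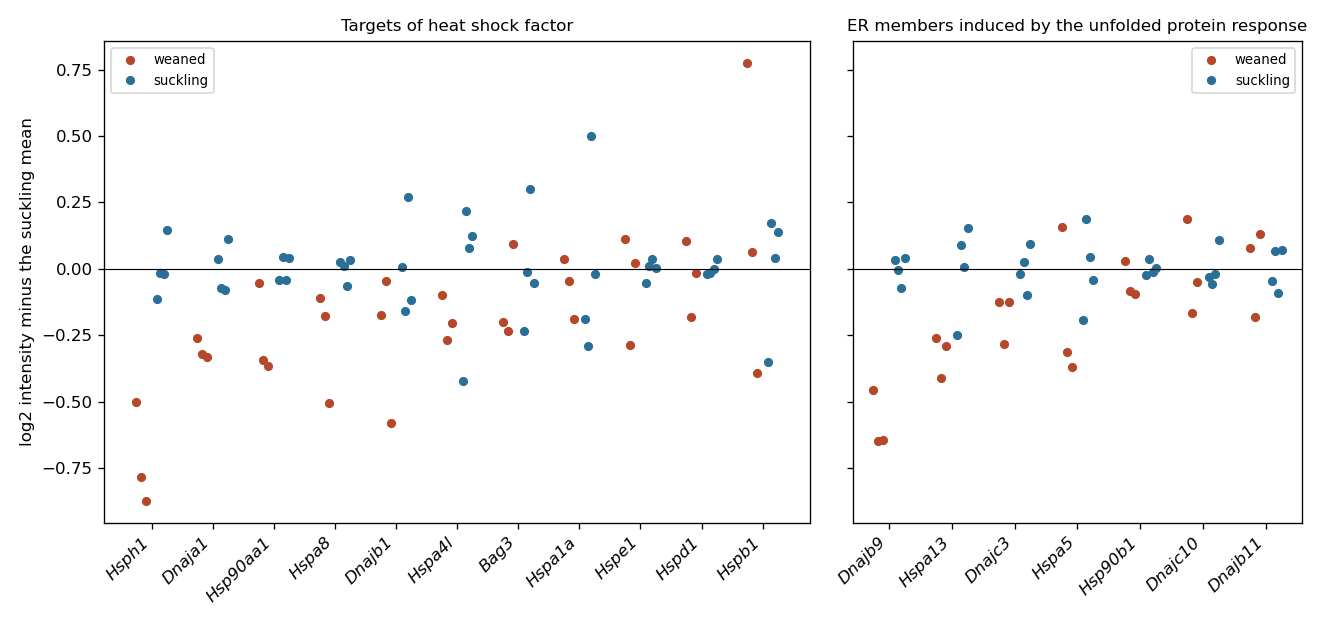
Log2 intensity of each array minus the suckling mean of the gene, for the 11 heat shock factor targets and the 7 unfolded protein response members, with the weaned points of a gene left of its suckling points. The weaned points of Hsph1 and Dnajb9 lie lowest against the suckling points of their gene, while Hspb1 has weaned points on both sides of them.

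Of the 8 mitochondrial members, 0 had groups without overlap, where 7.32% of all genes did. Hspd1 and Hspe1, the chaperonin HSP60 and its lid, share a promoter and lay close to 0, at -0.031 (SE 0.11) and -0.052 (SE 0.12). Hspd1 had 9.52, 9.23 and 9.39 log2 units on weaned arrays, against 9.39, 9.39, 9.41 and 9.45 on suckling arrays. The weaned range held the whole suckling range. RefSeq lists 5 pseudogenes of Hspd1 and 6 of Hspe1, which the probe sets may share, and the second probe sets gave -0.17 for Hspd1 and 0.06 for Hspe1. Hspa9 (mortalin), the Hsp70 that pulls proteins into the matrix, differed by -0.14 (SE 0.14), and by -0.28 without weaned replicate 4 and -0.021 without weaned replicate 12. Dnajc15, a J-domain protein of the inner membrane, had the highest difference of the 8, at 0.33 (SE 0.16, adjusted p = 0.672 in limma), with 8.59, 8.57 and 8.92 on weaned arrays, against 8.18, 8.52, 8.60 and 8.15 on suckling arrays. Weaned replicates 4 and 5 lay just below suckling replicate 11, so these groups overlapped too, and the difference was 0.21 without weaned replicate 12. Dnajc11, which joins the complex that shapes the cristae, differed by 0.22 (SE 0.15), and by 0.11 without suckling replicate 2. In all 3 means were higher and 5 lower, and 0 members had an unadjusted p under 0.05, against 7.58% of all genes. Counts of 0 among 8 members do not set them apart from these shares.

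Of the Bag proteins 4 of 6, and of the small heat shock proteins 5 of 8, had higher weaned means. Bag5, a nucleotide exchange factor with several BAG domains, measured 5.55, 5.18 and 4.98 log2 units on weaned arrays, against 4.98, 4.81, 4.98 and 4.60 on suckling arrays. The lowest weaned array lay above the highest suckling array by less than the rounding shown, so the groups only just did not overlap. Its difference was 0.39 (SE 0.16, adjusted p = 0.634 in limma), and 0.24 without weaned replicate 4. Bag6, which guards tail-anchored proteins on the way to the ER, gave 8.05, 8.12 and 8.10 on weaned arrays, against 7.92, 7.84, 8.04 and 7.99 on suckling arrays, also without overlap (0.14, SE 0.10). Bag1, which links Hsp70 to the proteasome, differed by 0.048 (SE 0.12), and Bag3, which sends clients to autophagy and is a heat shock factor target, by -0.11 (SE 0.15), which was -0.0136 without suckling replicate 11 and -0.218 without weaned replicate 12. The median of the Bag members was 0.095.

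Hspb11 is counted with the small heat shock proteins by name, but its protein is a part of the intraflagellar transport complex. It had 7.18, 6.80 and 7.08 log2 units on weaned arrays, against 6.68, 6.35, 6.88 and 6.40 on suckling arrays. Suckling replicate 11 lay above weaned replicate 5, so the groups overlapped. Its difference of 0.44 was the highest of all members (SE 0.16, adjusted p = 0.606 in limma). Hspb1 (HSP25) had 6.14, 5.43 and 4.98 on weaned arrays, against 5.02, 5.54, 5.41 and 5.51 on suckling arrays. Weaned replicate 4 was the highest and weaned replicate 12 the lowest of all 7 arrays, and the difference of 0.15 (SE 0.25) ran from -0.16 to 0.42 when 1 array was left out. The second, dimmer probe set of Hspb1 differed by -0.029 (SE 0.19). Hspb8, the partner of Bag3, differed by 0.14 with the widest standard error of the named members (0.33).

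Other J-domain members with a low unadjusted p act in splicing, signalling and membrane traffic. Dnajc17, a nuclear protein of the splicing machinery, measured 5.73, 5.25 and 5.72 log2 units on weaned arrays, against 6.0, 5.85, 6.10 and 6.13 on suckling arrays. The groups did not overlap, and weaned replicate 5 was the lowest array. Its difference was -0.46 (SE 0.15, adjusted p = 0.552 in limma), and -0.30 without weaned replicate 5. Dnajc27, a Rab-like GTPase with a J domain, measured 4.94, 5.16 and 4.81 on weaned arrays, against 4.49, 4.48, 4.54 and 4.77 on suckling arrays. Here every weaned array lay above every suckling array, with a difference of 0.40 (SE 0.13, adjusted p = 0.552 in limma).

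Dnajc13 (RME-8), which acts in endosomal sorting, had 8.65, 8.36 and 7.80 log2 units on weaned arrays, against 8.78, 8.65, 8.83 and 8.995 on suckling arrays. Weaned replicate 4 lay just above suckling replicate 9, so the groups overlapped by 1 pair of arrays. The brightest of its 15 probe sets gave this difference of -0.55 (SE 0.19, adjusted p = 0.589 in limma), the others ran up to 0.11, and their mean gave -0.18. Without weaned replicate 12 the difference was -0.31.

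Dnajc5, the cysteine string protein of secretory vesicles, differed by -0.11 (SE 0.12), and by -0.043 without weaned replicate 4. Dnajc6 (auxilin), which strips clathrin coats together with Hspa8, had 7.0, 6.97 and 6.96 log2 units on weaned arrays, against 6.73, 6.62, 6.63 and 6.97 on suckling arrays, with overlap at suckling replicate 12 (0.24, SE 0.12, adjusted p = 0.680 in limma). Dnajc12, a co-chaperone of aromatic amino acid hydroxylases, had 7.48, 6.91 and 6.65 on weaned arrays, against 6.74, 7.23, 7.04 and 7.12 on suckling arrays, and differed by -0.023 (SE 0.20). Across all 45 J-domain members 21 means were higher and 24 lower, with a median of -0.019. By type, all 4 Dnaja means were lower, 8 of 13 Dnajb means were lower, and 16 of 28 Dnajc means were higher.

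**Figure D4:**
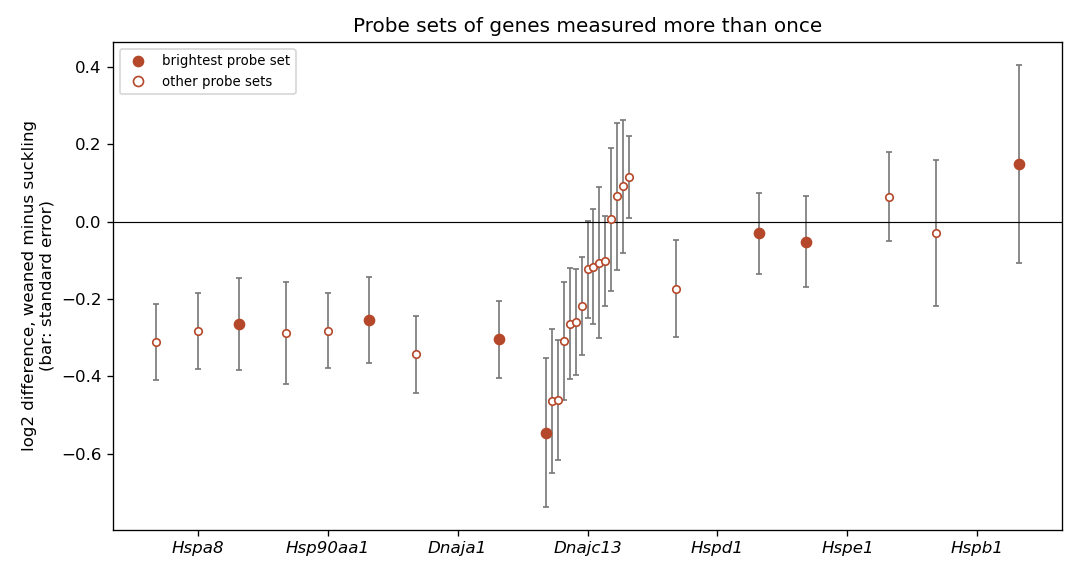
Log2 difference, weaned minus suckling, of each single-symbol probe set of the members measured by several such probe sets with different values. Filled points mark the brightest and bars show standard errors. The 3 probe sets of Hspa8, the 3 of Hsp90aa1 and the 2 of Dnaja1 lie between -0.34 and -0.25, while the 15 of Dnajc13 spread from -0.55 to 0.11. Pseudogenes of Hspa8 and Hsp90aa1 were not looked up and probe positions were not available, so their probe sets may not be separate measurements.

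Partners of these chaperones outside the family were taken as a list of 41 genes, of which 40 were measured. Their weaned means were higher for 14 and lower for 26, with a median of -0.056, and 0 passed the adjusted threshold. At an unadjusted p under 0.05, 3 were higher and 3 lower, together 15% of the list, where 4.39% of all genes were higher and 3.19% lower. Chordc1, a partner of Hsp90 that is itself heat-inducible, measured 7.34, 7.22 and 7.28 log2 units on weaned arrays, against 7.56, 7.64, 7.57 and 7.59 on suckling arrays. Both groups were tight and did not overlap (-0.31, SE 0.10, adjusted p = 0.552 in limma). Stip1 (HOP), which bridges Hsp70 and Hsp90, measured 7.56, 7.33 and 7.41 on weaned arrays, against 7.66, 7.88, 7.87 and 7.62 on suckling arrays, also without overlap (-0.33, SE 0.12, adjusted p = 0.612 in limma).

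Cryab, a small heat shock protein outside the naming rule, differed by -0.62 (SE 0.20, adjusted p = 0.552 in limma). Its weaned mean of 2.93 is dim, so the size of this difference is not well measured. Fkbp5, an Hsp90 co-chaperone induced by glucocorticoids, had 6.16, 5.68 and 5.42 on weaned arrays, against 5.29, 5.12, 5.48 and 5.05 on suckling arrays. The groups overlapped at suckling replicate 11 (0.52, SE 0.18, adjusted p = 0.589 in limma), and the difference was 0.32 without weaned replicate 4. The other higher partners, named after their values were seen, were Hscb, a mitochondrial J-domain protein of iron-sulfur assembly (0.50, SE 0.19), and Hsf2, a heat shock factor (0.36, SE 0.14), each with an adjusted p of at least 0.624 in limma.

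Of 7 sensors and factors of the ER stress response, 2 means were higher and 5 lower, with a median of -0.12, and Eif2ak3 was the 1 with an unadjusted p below 0.05, or 14.3%, against 7.58% of all genes. Eif2ak3 (PERK) measured 6.47, 6.46 and 6.26 log2 units on weaned arrays, against 6.64, 6.67, 6.54 and 7.0 on suckling arrays, without overlap (-0.32, SE 0.14, adjusted p = 0.649 in limma). Atf4, the factor translated when PERK is active, had 7.12, 7.20 and 7.04 on weaned arrays, against 6.58, 6.86, 7.01 and 6.97 on suckling arrays, without overlap in the opposite direction (0.27, SE 0.13, adjusted p = 0.680 in limma). The difference of Atf4 was 0.14 with the acinar mean as a covariate and 0.18 without suckling replicate 2. Ddit3 (CHOP), a target of Atf4 named after its values were seen, differed by -0.12 (SE 0.24), with overlap. Herpud1, a degradation factor of the ER membrane, differed by -0.33 (SE 0.17), and by -0.14 without weaned replicate 4. Atf6 differed by -0.16 (SE 0.12), and by -0.0962 without suckling replicate 12. Xbp1 and Ern1 (IRE1), named after their values were seen because Dnajb9 is a target of XBP1 and a partner of IRE1, differed by -0.014 (SE 0.12) and 0.06 (SE 0.15). Splicing of Xbp1 was not measured here.

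The members also varied from mouse to mouse within a group. Weaned replicate 4 was the highest weaned array for 40 of 76 members (52.6%), against 35.4% of all genes and 43.3% of those above the median level. Suckling replicate 12 was the highest suckling array for 31 members (40.8%) and suckling replicate 2 the lowest for 29 (38.2%). The same shares were 28.6% and 31.5% of all genes, and 41.1% and 43.8% of genes above the median level. Leaving out weaned replicate 4 gave wider differences for Hsph1 (-0.83), Hspa5 (-0.34) and Hsp90aa1 (-0.35).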

How the data were processed

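Sorted YFP+ pancreatic beta cells of 7 mice were measured on Affymetrix arrays, 3 weaned and 4 suckling, with 1 array a mouse. RNA was amplified with the Ovation Pico System V2, per the labels' protocols. The authors deposited 1 intensity per probe set and array, and the submitters' processing notes name RMA and Partek 6.6. The intensities run from 1.45 to 12755, so they are linear, and were brought to log2 before any step here. Settings of RMA are not given in the sources used here. The method pulls differences of dim probe sets towards 0.

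Of 35556 probe sets, 21789 name 1 gene, 1621 several and 12146 none in the platform annotation. The brightest single-symbol probe set stood for each of 19938 genes, 76 of them members with 99 probe sets. Another 10 probe sets that name a member with a second gene were not assigned. No per-sample column was left out (0).

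Weaned and suckling arrays were compared with limma 3.58.1 in R 4.3.3 (lmFit, eBayes, no covariate, two-sided), with p-values adjusted by Benjamini-Hochberg over the 19938 genes and a threshold of 0.05. The number of arrays limits the precision. Each mouse is 1 biological repetition, per the labels' protocols. The members and lists were chosen with earlier results of these data known. Named genes were a fixed set of chaperones, the 12 members and the 2 of each class with the smallest p, and the 4 partners and 4 stress sensors with the smallest p. Alternatives were quantile normalization, centring, an intensity trend with a robust prior, filters on level, the mean of probe sets, array weights, acinar and immediate early covariates, and leaving out each array. Leaving out suckling replicates 2 and 9 together was added after the data were seen.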

Additional observations from a re-analysis of the deposited data

Results flagged for a closer look

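In 5 of the 76 members a single suckling array stood far from the other three, by a gap that took up most of the range of the group. Chance gives such an array in about 1 in 20 groups of 4, which is close to the share of members here. The rule was not run over all genes, so their share cannot be set beside it. Suckling replicate 2 was that array in 4 of the 5. Dnajc4 measured 5.902 log2 units there, against 6.43 on the nearest suckling array, and Dnajc30, a mitochondrial J-domain protein, 6.284, against 6.69. The testis genes Dnajb7, at 2.845, and Hspb9, at 3.048, stood apart at dim levels, and the other suckling values of Hspb9 were identical at 3.30. Hspa4, an Hsp110 relative, measured 7.853 on suckling replicate 12, against 7.62 on the nearest array.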

How the results depend on the processing

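Hsph1 and Dnajb9 kept their direction in all 17 alternatives, from -0.83 to -0.64 and from -0.65 to -0.55. Adjusted p ran from 0.0694 to 0.902 for Hsph1 and from 0.0236 to 0.902 for Dnajb9, which was the 1 member past the threshold with an intensity trend and a robust prior, a fit that called 9 genes against 3. The count of members higher at an unadjusted p under 0.05 was 1 with the acinar covariate and 1 without suckling replicates 2 and 9, and 2 to 4 with single arrays left out; the count lower was 4 to 10. The ER median was -0.0557 without suckling replicates 2 and 9, and -0.035 to 0.0176 with single arrays left out. The same ranges were -0.0681 to 0.00094 for the cytosolic, -0.117 to 0.0557 for the mitochondrial and -0.108 to -0.0064 for the partner medians. Members near 0 changed sign. Dnajb11 was -0.00909 with quantile normalization, -0.00975 with centring and -0.00938 with array weights. Hspe1 was 0.00629 with the mean of probe sets. With the immediate early covariate Hspe1 was 0.0256, Dnajc10 0.0371, Hspd1 0.0189 and Hspb8 -0.0315, and with the acinar covariate Hspb1 was -0.0484. With single arrays left out, Dnajb11 ran from -0.0501 to 0.105, Dnajc10 from -0.107 to 0.0701, Hspa1a from -0.164 to 0.0992, Hspd1 from -0.0996 to 0.0452, Hspe1 from -0.134 to 0.0662, Dnajc12 from -0.255 to 0.161, Bag1 from -0.0187 to 0.122, Hspb1 from -0.163 to 0.42 and Hspb8 from -0.13 to 0.425. The cause was not tested for any of these. Hspb8 and Cryab had no value with genes below the median level left out. Centring moved the median of all genes to -0.019 and the share of higher means to 45.5%. No paired analysis was possible because the groups share only the replicate number 12.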

Other observations

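Some members gave little signal. Both group means lay below the dim level of 3.27 log2 units for Dnajc5b, Dnajc5g, Dnajb7, Dnajb8, Hspa1l and Hspb7, and 1 of the means did for Hspb3 and Hspb9. Hspa1l, a testis Hsp70, averaged 2.495 log2 units in weaned mice and 2.53 in suckling mice. Hspb7, a small heat shock protein of heart, averaged 2.91 in weaned and 3.08 in suckling mice. Hspb3, of muscle, averaged 3.21 in weaned and 3.27 in suckling mice. Other members best known from testis were well above this level, with Hspa2 at 5.67 in weaned and 6.15 in suckling mice and Dnajb3 at 5.79 in weaned and 5.60 in suckling mice. Differences between values at the dim level are not well measured.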
